A study of Homo sapiens with 9 samples.

Results

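The genes described here encode the machinery that writes methylation onto lysine 9 of histone H3 (H3K9). They were chosen by symbol from the deposited count table as writers and writer cofactors, namely SUV39H1, SUV39H2, SETDB1, ATF7IP, TRIM28, EHMT1, EHMT2, MPHOSPH8, PPHLN1 and MORC2, and all 10 were found among the 57820 genes listed. Their RNA was measured by Chrom-seq in the established human embryonic kidney line HEK293T. In Chrom-seq, a chromatin reader domain carries a chain of GCN4 peptides, which recruits an antibody fragment fused to the peroxidase APEX2, and RNA close to the peroxidase is biotinylated in living cells and captured on streptavidin. There were 9 libraries, with 3 replicates in each of 3 groups.

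In the CBX1 group, the reader was the chromodomain of the heterochromatin protein CBX1 (residues 18 to 82), which binds trimethylated H3K9. In the CBX1_W42A group, the same domain carried the W42A change in the pocket that holds the methylated lysine. The Control group received the vector without a reader. All groups also received the plasmid for the antibody fragment fused to APEX2, driven by the chicken β-actin promoter, and expressed the constructs for 48 hours. Labeling used 30 min of biotin-aniline at 500 μM, followed by hydrogen peroxide at 1 mM for 1 min. The readers were transiently overexpressed, and the labels name no further genetic change of the line. The sample descriptions carry the tag NLS in all 3 groups. Libraries held 8379542 to 11082852 counts. Members had between 323 and 3370 counts in a library, and all 10 passed the filter on low counts in every comparison. The HEK293T label was checked on 8 marker genes, whose summed level was 1072 to 1278 CPM (counts scaled by library size and TMM factor) with CBX1, 1121 to 1311 CPM with CBX1_W42A and 1222 to 1470.0 CPM in the control, while 6 measured markers of blood, liver, endothelial and muscle cells summed to between 3.25 and 6.25 CPM in all libraries, with CD3E and HBB at 0 in every library.

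Methylated H3K9 is the mark of heterochromatin, the compact and largely silent part of the genome. SUV39H1 and SUV39H2 place the trimethyl mark at pericentromeric repeats, SETDB1 places it at retroelements and zinc finger genes, and EHMT1 (GLP) and EHMT2 (G9a) form a heterodimer that places the mono- and dimethyl marks in euchromatin. HP1 proteins, of which CBX1 is a member, bind the methylated lysine and help to recruit further writers. TRIM28 (KAP1) brings SETDB1 to sites bound by KRAB zinc finger proteins, ATF7IP binds SETDB1 and keeps it stable in the nucleus, and MPHOSPH8 and PPHLN1 are subunits of the HUSH complex, which works with the ATPase MORC2 and with SETDB1 to spread the mark over retroelements and young transgenes.

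The promoters of the 4 members whose captured RNA differed in a comparison are shown to give the sequence context of their start sites. They cover 250 bases before and 50 bases after the most upstream start that RefSeq lists on GRCh38.p14, where 9 of the 10 members were matched, and CG dinucleotides are in capitals. The positions are chr12:14365432-14365731 (plus strand) for ATF7IP, chr1:150926013-150926312 (plus strand) for SETDB1, chr9:137618755-137619054 (plus strand) for EHMT1 and chr6:31897649-31897948 (minus strand) for EHMT2.
ATF7IP: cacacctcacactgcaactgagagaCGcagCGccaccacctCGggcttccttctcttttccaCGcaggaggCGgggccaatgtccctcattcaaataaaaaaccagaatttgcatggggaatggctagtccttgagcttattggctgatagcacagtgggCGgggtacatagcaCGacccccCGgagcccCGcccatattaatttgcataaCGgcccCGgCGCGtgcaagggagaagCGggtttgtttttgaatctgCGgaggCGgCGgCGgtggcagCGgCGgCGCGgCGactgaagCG
SETDB1: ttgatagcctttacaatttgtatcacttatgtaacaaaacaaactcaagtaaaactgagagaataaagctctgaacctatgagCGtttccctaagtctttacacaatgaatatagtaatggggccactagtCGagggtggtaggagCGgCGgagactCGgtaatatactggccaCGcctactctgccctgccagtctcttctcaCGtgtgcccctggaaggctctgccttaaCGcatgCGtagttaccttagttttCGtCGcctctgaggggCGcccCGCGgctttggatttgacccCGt
EHMT1: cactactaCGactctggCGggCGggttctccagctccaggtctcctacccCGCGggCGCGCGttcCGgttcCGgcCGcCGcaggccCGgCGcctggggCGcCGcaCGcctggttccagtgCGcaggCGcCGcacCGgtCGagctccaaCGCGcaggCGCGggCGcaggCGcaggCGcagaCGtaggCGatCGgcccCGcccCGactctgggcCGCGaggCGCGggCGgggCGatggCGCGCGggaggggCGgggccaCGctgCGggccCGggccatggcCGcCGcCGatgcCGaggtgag
EHMT2: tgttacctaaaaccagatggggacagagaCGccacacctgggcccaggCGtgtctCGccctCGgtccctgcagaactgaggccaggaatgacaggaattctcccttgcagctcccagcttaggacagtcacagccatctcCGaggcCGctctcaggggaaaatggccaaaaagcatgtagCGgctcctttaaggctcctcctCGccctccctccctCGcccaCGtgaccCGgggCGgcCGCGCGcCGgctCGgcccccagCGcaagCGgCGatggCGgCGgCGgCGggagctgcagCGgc

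These windows held 24 CG dinucleotides for ATF7IP, 15 for SETDB1, 51 for EHMT1 and 25 for EHMT2, where the median of 35116 listed promoters was 14. As many CG dinucleotides or more were held by 33.9% of the listed promoters for the count of ATF7IP, 48.9% for SETDB1, 1.01% for EHMT1 and 32.0% for EHMT2. The EHMT1 promoter was thus among the windows richest in CG, while that of SETDB1 was close to the middle.

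The comparison of CBX1 with the control asks which RNAs were captured more near chromatin that the H3K9me3 reader binds. ATF7IP RNA rose 1.43-fold with CBX1, while EHMT1 and EHMT2 RNA fell to 0.805 and 0.785 of the control level. Among the 10 members, 1 was higher and 2 were lower at an adjusted p below 0.05, and 7 did not pass the test. Of all 18837 genes tested, 10.6% were called higher and 9.46% lower, so 3 of 10 members stood beside 20.1% called in either direction over all genes and 26.5% over the 4935 genes whose abundance lay within the members' range. Under the stricter rule, which also asks for a change of 0.75 or more on the log2 scale, 0 members were higher and 0 lower, beside 7.06% and 0.34% of all genes. An unadjusted p below 0.05 was found for 5 members and 34.2% of all genes. The median log2 fold change was -0.09 over the members, 0.03 over all genes and -0.14 over those 4935 genes.

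The comparison of CBX1 with CBX1_W42A asks how the captured RNA differs between the reader and its W42A form. The CBX1_W42A samples were registered in a separate block from the CBX1 and control samples, and the labels give no batch or date, so a difference in preparation and the difference between readers cannot be told apart, here or against the control. ATF7IP RNA was 1.66-fold and SETDB1 RNA 1.38-fold higher with CBX1, and these genes encode direct partners. The counts were 2 members higher and 0 lower, with 8 not passing the test, beside 1.32% of the 19360 genes tested called higher, 0.925% lower and 2.24% in either direction. DESeq2 also called 0 members lower, and 4 members (16.6% of all genes) had an unadjusted p below 0.05, among them EHMT1 on the lower side. Under the stricter rule 0 members passed in either direction, beside 0.795% of all genes higher and 0.201% lower.

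The comparison of CBX1_W42A with the control asks what the mutated reader captures. Here edgeR called 0 members higher and 0 lower, DESeq2 also called 0 in both directions, and 4 members had an unadjusted p below 0.05, all with lower levels. Of the 18680 genes tested, 1.37% were called higher, 1.25% lower and 2.62% in either direction, and 19.3% had an unadjusted p below 0.05. The stricter rule gave 0 members, beside 0.974% of all genes higher and 0.0214% lower. Both comparisons with the control use the same 3 control libraries.

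**Figure D1:**
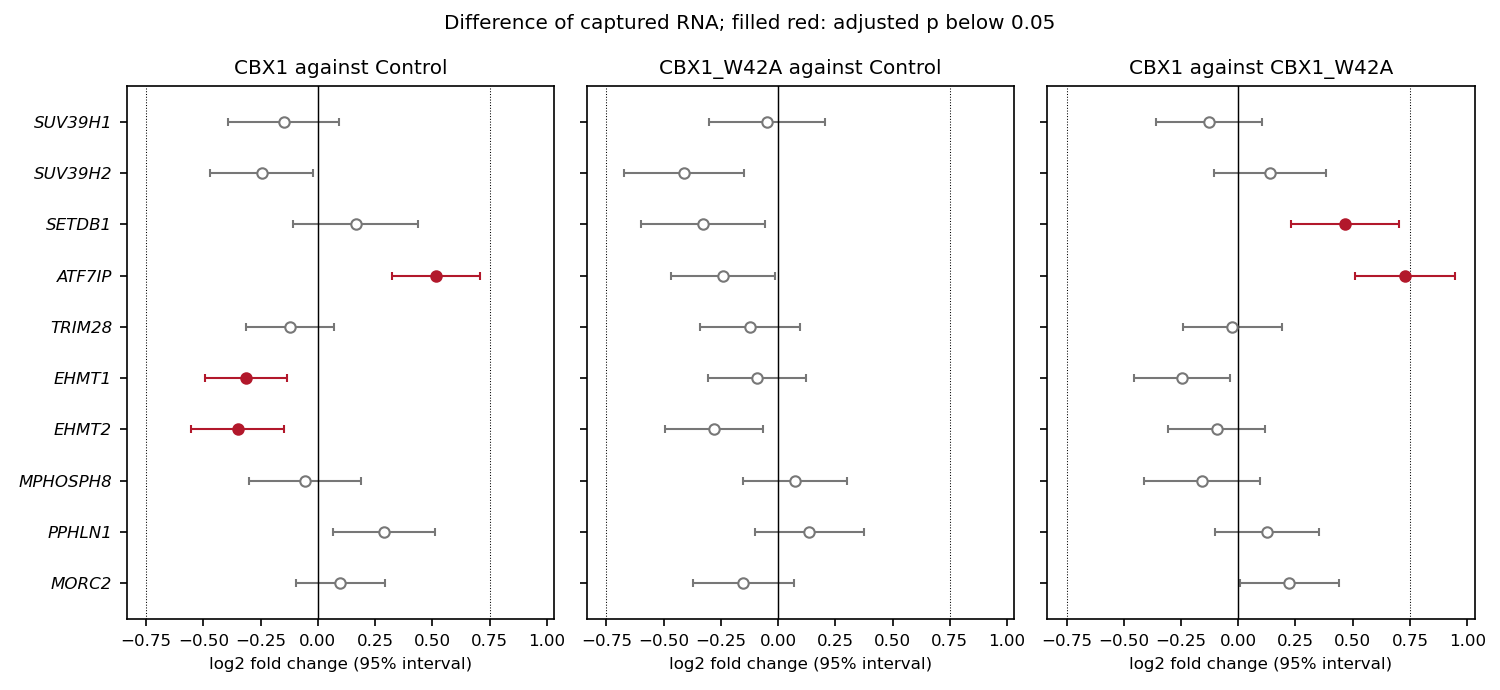
Log2 fold change of captured RNA (x axis) for the 10 members (y axis) in the 3 comparisons, with 95% intervals from edgeR's quasi-likelihood test. Filled red points have an adjusted p below 0.05 and dotted lines mark 0.75 in either direction. ATF7IP lies to the right in both comparisons with CBX1 in front, at 0.52 and 0.73, and EHMT1 and EHMT2 lie to the left against the control.

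SETDB1 and its partners ATF7IP and TRIM28 are described first. ATF7IP lies on chr12:14518610-14651697, plus strand (hg19, as for all positions of counted genes below). Its level was 89.1, 91.5 and 82.2 CPM in control replicates 1, 2 and 3, it was 71.5, 81.1 and 69.6 CPM with CBX1_W42A, and it was 128, 119 and 127 CPM with CBX1. All CBX1 libraries were above all other libraries, and the lowest of them exceeded the highest control by more than the range within either group. The mean was 124 ± 4.89 CPM with CBX1 (SD, n = 3), 74.1 ± 6.18 with CBX1_W42A and 87.6 ± 4.82 in the control. With edgeR's quasi-likelihood test and Benjamini-Hochberg adjustment over all genes tested, the log2 fold change was 0.52 (SE 0.09, adjusted p = 0.00125) against the control and 0.73 (SE 0.11, adjusted p = 0.000733) against CBX1_W42A, where ATF7IP ranked 13 of 19360 genes by p. Against the control, CBX1_W42A had a log2 fold change of -0.24 (95% interval -0.47 to -0.01, adjusted p = 0.232), and its libraries lay below the control libraries without overlap. Whether more captured ATF7IP RNA came from more of this RNA in the cells or from more of it near the reader cannot be told apart, since RNA without enrichment was not analysed here, and fewer labeled cells and less RNA per cell cannot be told apart either. The study calls its CBX1 replicates independent, but the labels do not say whether the replicates of a group came from separate cultures. Where they did not, the p-values measure only the spread between these samples, which may be technical.

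SETDB1 (chr1:150898739-150937213, plus strand) gave 77.3, 110.1 and 82.4 CPM in the control replicates, 70.8, 77.6 and 66.3 CPM with CBX1_W42A, and 113, 87.6 and 99.6 CPM with CBX1. The CBX1 libraries were all above the CBX1_W42A libraries, while the control libraries spread over both because control replicate 2 was as high as CBX1. The mean was 100.1 ± 12.8 CPM with CBX1, 71.6 ± 5.64 with CBX1_W42A and 89.9 ± 17.7 in the control. Its log2 fold change was 0.47 (SE 0.11, adjusted p = 0.0327) for CBX1 against CBX1_W42A. This call was lost without CBX1 replicate 1 (adjusted p = 0.211), CBX1 replicate 3 (0.114), CBX1_W42A replicate 1 (0.0731) or CBX1_W42A replicate 3 (0.111). Calls over all genes also fell in these fits, from 255 higher and 179 lower. They were 87 and 44 without CBX1 replicate 1, and 101 and 30 without CBX1 replicate 3. Without CBX1_W42A replicate 1 they were 192 and 132, and without CBX1_W42A replicate 3 they were 129 and 81. Against the control, the log2 fold change was 0.16 (95% interval -0.11 to 0.44, adjusted p = 0.39) with CBX1 and -0.33 (95% interval -0.60 to -0.06, adjusted p = 0.167) with CBX1_W42A. Without control replicate 2, SETDB1 was called higher with CBX1 than in the control, at a log2 fold change of 0.34 (adjusted p = 0.0387).

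TRIM28 (chr19:59055458-59062089, plus strand) was the most abundant member. Its level was 326, 279 and 319.6 CPM in the control, 298, 256 and 294 CPM with CBX1_W42A, and 288, 293 and 263 CPM with CBX1. The 3 groups overlapped, and the log2 fold change was -0.12 (95% interval -0.32 to 0.07, adjusted p = 0.373) for CBX1 and -0.12 (95% interval -0.34 to 0.10, adjusted p = 0.558) for CBX1_W42A against the control. Between both readers it was -0.03 (95% interval -0.24 to 0.19, adjusted p = 0.936). In both comparisons with CBX1 in front, the interval lay below the log2 fold change of ATF7IP.

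**Figure D2:**
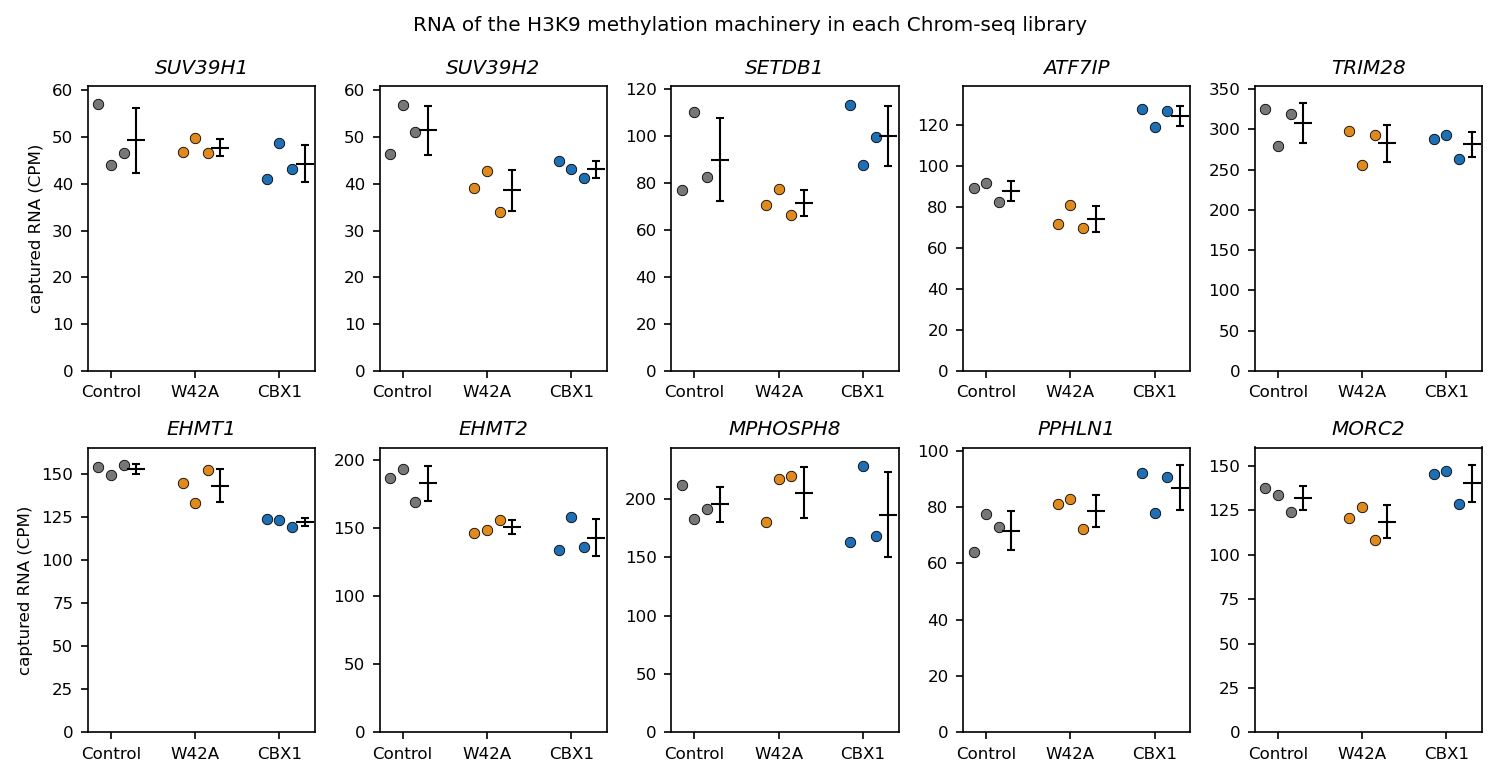
Captured RNA in CPM (y axis, from 0) of each member in each library, grouped as Control, CBX1_W42A (W42A) and CBX1 (x axis). Points are the 3 replicates in order, and the bar to their right is the mean with its SD. The ATF7IP points with CBX1 (119 to 128 CPM) lie above all others, and the EHMT1 points with CBX1 lie below all others.

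EHMT1 and EHMT2 moved the other way. EHMT1 (chr9:140513444-140764468, plus strand) had 154, 149.8 and 155 CPM in the control, 145, 133 and 152 CPM with CBX1_W42A, and 124, 124 and 119.6 CPM with CBX1. The CBX1 libraries lay below the 6 libraries of the other groups. The mean was 122 ± 2.44 CPM with CBX1, 143 ± 9.56 with CBX1_W42A and 153 ± 2.83 in the control, and the log2 fold change against the control was -0.31 (SE 0.09, adjusted p = 0.0167). Between CBX1 and CBX1_W42A it was -0.25 (95% interval -0.46 to -0.04, adjusted p = 0.211), and between CBX1_W42A and the control -0.09 (95% interval -0.30 to 0.12, adjusted p = 0.661).

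EHMT2 (chr6:31847536-31865464, minus strand) had 187, 194 and 169 CPM in the control, 147, 149 and 156 CPM with CBX1_W42A, and 134, 158 and 136 CPM with CBX1. Libraries of both readers were all below the control libraries, and they overlapped each other. The mean was 143 ± 13.5 CPM with CBX1, 151 ± 5.09 with CBX1_W42A and 183 ± 12.8 in the control. The log2 fold change against the control was -0.35 (SE 0.10, adjusted p = 0.0179) with CBX1 and -0.28 (95% interval -0.50 to -0.07, adjusted p = 0.138) with CBX1_W42A, and between the readers it was -0.09 (95% interval -0.31 to 0.12, adjusted p = 0.696). A difference between the readers in EHMT2 was therefore not shown.

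The calls of EHMT1 and EHMT2 were lost with other scalings. With upper-quartile factors their adjusted p was 0.0687 and 0.0641, and with the library size alone 0.0732 and 0.0645. They were also lost when a curve of log2 fold change over abundance was subtracted (adjusted p = 0.345 and 0.294). EHMT1 was not called without CBX1 replicate 3 (adjusted p = 0.0776) or control replicate 3 (0.0544), nor EHMT2 without CBX1 replicate 1 (0.0744) or replicate 3 (0.0902). The direction of EHMT1 and EHMT2 held in each of these. Over all genes, the number called lower also fell from 1782. It was 1111 without CBX1 replicate 1, 886 without CBX1 replicate 3 and 1273 without control replicate 3.

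SUV39H1 and SUV39H2 encode the enzymes of constitutive heterochromatin and were the members with the fewest counts. SUV39H1 (chrX:48553945-48567403, plus strand) had 57.2, 44.1 and 46.7 CPM in the control, 46.8, 49.9 and 46.7 CPM with CBX1_W42A, and 41.0, 48.6 and 43.3 CPM with CBX1. The groups overlapped in all comparisons, and the log2 fold change was -0.15 (95% interval -0.39 to 0.09, adjusted p = 0.383) with CBX1 and -0.05 (95% interval -0.30 to 0.21, adjusted p = 0.873) with CBX1_W42A against the control, and -0.13 (adjusted p = 0.613) between the readers. SUV39H2 (chr10:14920819-14946314, plus strand) had 46.3, 56.9 and 51.1 CPM in the control, 39.1, 42.7 and 34.0 CPM with CBX1_W42A, and 44.8, 43.3 and 41.1 CPM with CBX1. Every library with a reader was below every control library, yet the log2 fold change of -0.25 (95% interval -0.47 to -0.02, adjusted p = 0.111) with CBX1 and of -0.41 (95% interval -0.67 to -0.15, adjusted p = 0.0794) with CBX1_W42A did not pass the test. Between the readers the log2 fold change was 0.14 (95% interval -0.11 to 0.38, adjusted p = 0.603).

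Of PPHLN1, MPHOSPH8 and MORC2, none passed the test in any comparison. PPHLN1 (chr12:42632249-42853517, plus strand), which encodes periphilin, had 64.2, 77.7 and 73.0 CPM in the control, 81.0, 82.9 and 72.1 CPM with CBX1_W42A, and 92.2, 77.8 and 90.7 CPM with CBX1. The lowest CBX1 library was only just above the highest control library. The log2 fold change was 0.29 (95% interval 0.07 to 0.51, adjusted p = 0.0603) for CBX1 against the control, and 9 of 17 alternatives brought the adjusted p below 0.05, down to 0.0125. It was 0.14 (adjusted p = 0.539) for CBX1_W42A against the control and 0.12 (adjusted p = 0.612) between the readers.

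MPHOSPH8 (chr13:20207788-20247599, plus strand), whose chromodomain also binds methylated H3K9, had 212, 183 and 191 CPM in the control, 181, 217 and 219.6 CPM with CBX1_W42A, and 163, 229 and 169 CPM with CBX1. CBX1 replicate 2 stood above the other CBX1 replicates, and the spread within that group (SD 36.4 CPM) was the widest of any member. The log2 fold change was -0.06 (95% interval -0.30 to 0.19, adjusted p = 0.763) with CBX1, 0.07 (95% interval -0.15 to 0.30, adjusted p = 0.754) with CBX1_W42A and -0.16 (adjusted p = 0.557) between the readers. MORC2 (chr22:31321117-31364284, minus strand) had 138, 134 and 124 CPM in the control, 120.4, 127 and 108 CPM with CBX1_W42A, and 145, 147 and 128 CPM with CBX1. The CBX1 libraries lay above the CBX1_W42A libraries, with a log2 fold change of 0.22 (95% interval 0.01 to 0.44, adjusted p = 0.286). Against the control it was 0.10 (adjusted p = 0.485) with CBX1 and -0.15 (adjusted p = 0.451) with CBX1_W42A.

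Counted over the members, libraries did not overlap for 2 higher (ATF7IP and PPHLN1) and 3 lower genes (SUV39H2, EHMT1 and EHMT2) between CBX1 and the control, beside 18.9% and 19% of all genes. Between CBX1_W42A and the control, 0 members were higher and 3 were lower without overlap (SUV39H2, EHMT2 and ATF7IP), beside 11.8% and 13% of all genes. Between CBX1 and CBX1_W42A, 3 were higher (SETDB1, ATF7IP and MORC2) and 1 was lower (EHMT1), beside 11.1% and 9.87%.

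The balance within the machinery was also read without any scaling between libraries, as the share of each member in the summed counts of all 10, a measure chosen after the data were seen. ATF7IP made up 6.35 to 6.93% of the sum in the control, 5.71 to 6.67% with CBX1_W42A and 8.95 to 10.4% with CBX1. EHMT1 made up 11.4 to 12.0% in the control, 11.0 to 12.5% with CBX1_W42A and 9.32 to 9.82% with CBX1. Shares with CBX1 did not overlap those of either other group for ATF7IP and MORC2, which were higher, and for EHMT1 and EHMT2, which were lower. The shares depend on each other, since a larger share of ATF7IP leaves less for the other members. No value over all genes goes with this measure. In CPM, MORC2 with CBX1 overlapped the control (adjusted p = 0.485 in edgeR's test), and EHMT2 overlapped between the readers (adjusted p = 0.696). MORC2 had 9.97 ± 0.33% in the control, 9.78 ± 0.79% with CBX1_W42A and 11.0 ± 0.45% with CBX1 (SD, n = 3), and EHMT2 had 13.8 ± 0.82%, 12.4 ± 0.34% and 11.2 ± 0.71%.

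**Figure D3:**
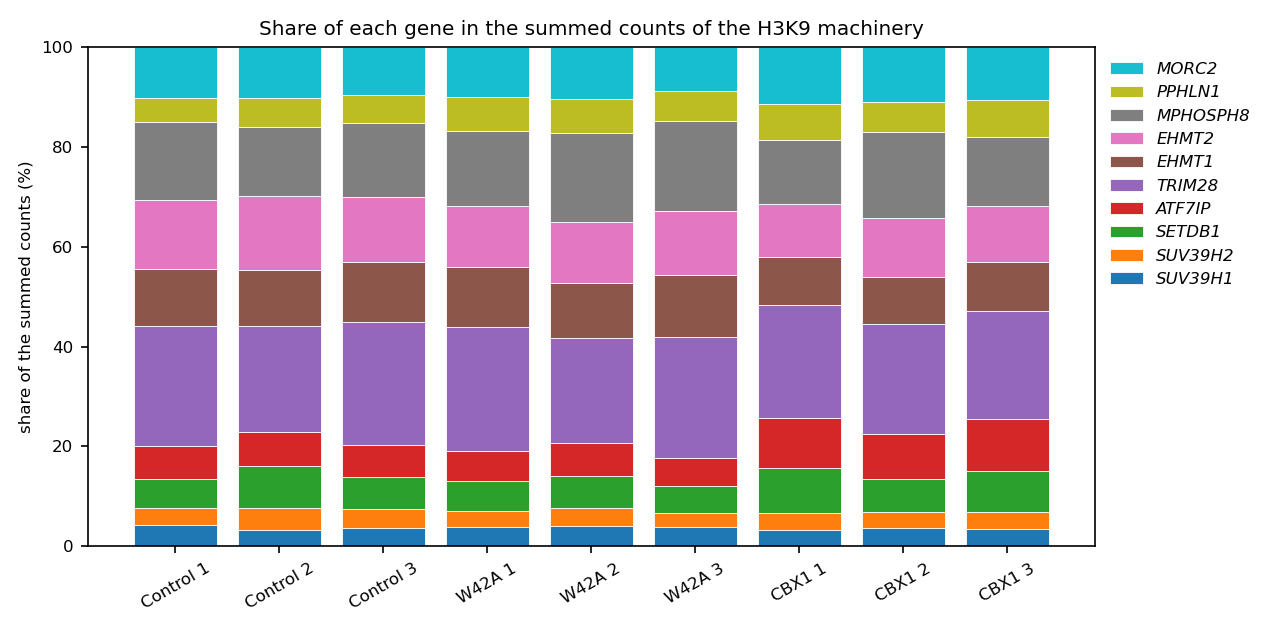
Share of each member in the summed counts of the 10 members (y axis, in percent) in each of the 9 libraries (x axis; W42A stands for CBX1_W42A). The red ATF7IP segment is thicker in the CBX1 libraries, at 8.95 to 10.4%, than in the other libraries, at 5.71 to 6.93%.

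Ratios of counts within a library show the same measurements pair by pair. The first pair sets the member called higher with CBX1 against the control over a member called lower. For each count of EHMT1 there were 0.530 to 0.611 counts of ATF7IP in the control, 0.457 to 0.609 with CBX1_W42A and 0.961 to 1.06 with CBX1. The mean ratio was 0.573 ± 0.041 in the control, 0.520 ± 0.079 with CBX1_W42A and 1.02 ± 0.05 with CBX1 (SD, n = 3). The SETDB1 to EHMT1 ratio was 0.589 ± 0.127, 0.502 ± 0.074 and 0.818 ± 0.103, and its CBX1 libraries overlapped those of the control. The ATF7IP to SETDB1 ratio was 0.993 ± 0.161 in the control, 1.03 ± 0.022 with CBX1_W42A and 1.25 ± 0.115 with CBX1. Its CBX1 libraries (1.13 to 1.36) overlapped those of the control (0.831 to 1.15). The ratio of EHMT1 to EHMT2 was 0.839 ± 0.074 in the control, 0.953 ± 0.049 with CBX1_W42A and 0.861 ± 0.074 with CBX1, and the CBX1 libraries overlapped both other groups.

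**Figure D4:**
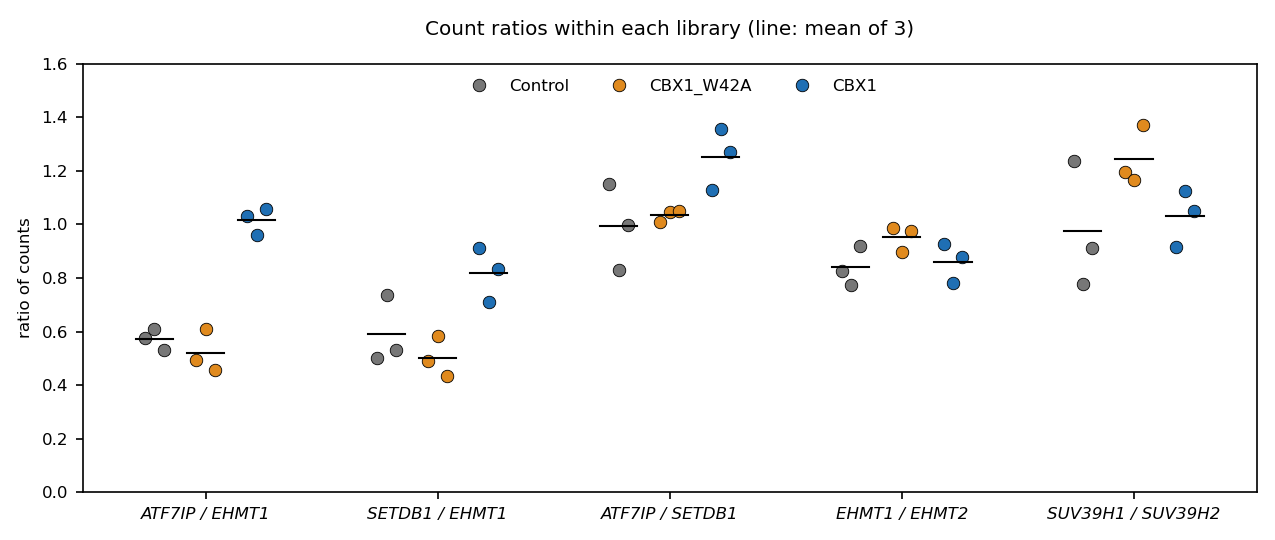
Ratio of the counts of 2 members within a library (y axis, from 0) for 5 pairs (x axis), with points for the 3 replicates of each group and a line at their mean. The ATF7IP to EHMT1 ratio lies between 0.961 and 1.06 with CBX1 and between 0.457 and 0.611 in the other libraries.

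Levels of different members were compared per kilobase of their merged exons (exon union). In the control, TRIM28 was highest at 71.6 ± 5.86 CPM per kb, followed by MPHOSPH8 at 39.8 ± 3.05 and EHMT2 at 25.1 ± 1.76. SUV39H1, SUV39H2, SETDB1 and MORC2 lay between 12.2 and 15.3 CPM per kb, and EHMT1, ATF7IP and PPHLN1 between 5.90 and 6.90. The order depended on the length used. Per kilobase of the canonical transcript within the counted gene, an alternative added after the data were seen, TRIM28 was again highest at 92.3 CPM per kb, EHMT2 and MPHOSPH8 were next at 46.1 each with overlapping libraries, PPHLN1 followed at 38.5, EHMT1 at 30.0 and MORC2 at 25.4, and SETDB1, ATF7IP, SUV39H1 and SUV39H2 lay between 16.8 and 20.4 with each neighbour overlapping the next. On this scale ATF7IP had 18.8 CPM per kb in the control, 15.9 with CBX1_W42A and 26.7 with CBX1, where it stood above EHMT1 at 24.0. Counts cover introns as well as exons, and 4167 bases of the canonical ATF7IP transcript lie beyond the counted gene, as do 476 of MORC2. The merged exon lengths were not cut to the counted gene and include such bases. The ATF7IP level per kilobase of merged exons is therefore too low, and its place beside EHMT1 and PPHLN1 on that scale is not settled.

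The genes that overlap members were checked, since reads of neighbours could enter a count. Between 98.9% and 100% of each member's length was free of other genes on the same strand, and reads of both strands were kept apart in the counts. CERS2, which encodes a ceramide synthase, runs against SETDB1 and overlaps its 3′ end by 4155 bases. It fell with CBX1 (log2 fold change -0.43, SE 0.10, adjusted p = 0.00705 against the control), while SETDB1 did not pass the test in that comparison. Between CBX1 and CBX1_W42A, where SETDB1 was called higher, CERS2 had a log2 fold change of -0.36 (adjusted p = 0.0632 in edgeR's test). CERS2 was not called there, though its CBX1 libraries lay below the CBX1_W42A libraries. The CERS2 call was lost with the abundance trend removed (adjusted p = 0.0973). RP11-328C8.4, which shares 350 bases with the end of PPHLN1 on the same strand, had 17, 5 and 8 counts with CBX1, 3, 5 and 3 with CBX1_W42A and 1, 2 and 0 in the control. It was called higher for CBX1 against the control (adjusted p = 0.0166). That call was lost without control replicate 3 (adjusted p = 0.0519) or with the abundance trend removed (0.0728). For CBX1_W42A against the control it did not pass the filter on low counts and was not tested. PPHLN1 itself had 596 to 933 counts in the same libraries. AF196970.3 at SUV39H1, DCLRE1C at SUV39H2, EHMT2-AS1 at EHMT2, ZCRB1 and PRICKLE1 at PPHLN1, and MORC2-AS1 at MORC2 lie on the opposite strand, and none of them was called in any comparison.

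Base composition differed between members. The merged exons of ATF7IP had a GC content of 39.0%, the lowest of the 10, those of EHMT1 and EHMT2 had 53.8% and 56.0%, and those of TRIM28 had 62.5%. Among genes with a log2 CPM of at least 5, the median log2 fold change of CBX1 against the control was -0.17 below 40% GC and -0.05 above 60%. After removal of the trend with exon GC content, the calls of ATF7IP, EHMT1 and EHMT2 were kept. The merged exons of ATF7IP and EHMT1 had 9.87% and 8.84% of the length of the counted gene, and those of EHMT2 40.7%. Since counts also cover introns, this removal does not cover the base composition of everything that was counted.

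The wider set of H3K9 genes held 36 genes, with 13 further writers and writer cofactors, 11 demethylases and 12 heterochromatin partners, all tested. With CBX1 against the control, 3 were higher, 6 were lower and 27 did not pass, and the median log2 fold change was -0.10. These 9 of 36 stood beside 20.1% of all genes called, with 10.6% higher and 9.46% lower. With upper-quartile factors or library size alone 3 were lower, as they were without CBX1 replicate 3, and 1 was higher without CBX1 replicate 1. CHAF1B, a subunit of the histone chaperone CAF-1, had 129.6, 116 and 115 CPM in the control, 87.1, 96.3 and 92.2 CPM with CBX1_W42A, and 64.2, 76.3 and 66.0 CPM with CBX1. The 3 groups did not overlap, with CBX1 lowest. Its log2 fold change was -0.80 (SE 0.10, adjusted p = 7.8e-05) for CBX1 against the control and -0.44 (SE 0.11, adjusted p = 0.034) against CBX1_W42A, where it was the only gene of the 36 that passed. The call against the control held under all 17 alternatives, while that against CBX1_W42A was lost with library size alone, with the abundance trend removed and without CBX1 replicate 1 or 3 or CBX1_W42A replicate 2 or 3 (adjusted p up to 0.18).

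Among the 13 further writers and cofactors, 2 were higher and 2 were lower with CBX1 against the control, beside 10.6% and 9.46% of all genes. SETDB2, a relative of SETDB1, fell from 20.2 ± 1.79 to 12.6 ± 1.72 CPM (log2 fold change -0.67, adjusted p = 0.0048). ATF7IP2, the paralog of ATF7IP, rose from 17.3 ± 1.46 to 24.6 ± 2.52 CPM (log2 fold change 0.52, adjusted p = 0.011, or 0.0553 without CBX1 replicate 1), and PRDM16 rose from 37.0 ± 6.94 to 51.4 ± 0.83 CPM (0.48, adjusted p = 0.0111). Both ATF7IP and its paralog were thus called higher against the control, but ATF7IP2 had a log2 fold change of only 0.20 against CBX1_W42A and was not called there. FAM208A (TASOR), the scaffold of HUSH, fell to 0.830 of the control level (adjusted p = 0.0363), a call lost under 12 of 17 alternatives, among them each of the 6 that left out a library.

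Among the 11 demethylases, 1 was higher and 3 were lower with CBX1 against the control, beside the same 10.6% and 9.46%. KDM1A (LSD1) fell from 283 ± 0.46 to 213 ± 15.9 CPM (log2 fold change -0.40, adjusted p = 0.00543), PHF8 fell from 99.6 ± 3.29 to 77.8 ± 4.26 CPM (-0.35, adjusted p = 0.0138) and KDM3A fell by 0.29 on the log2 scale (adjusted p = 0.0359). All 3 calls were lost when the abundance trend was removed (adjusted p = 0.151, 0.185 and 0.542), those of PHF8 and KDM3A also with upper-quartile factors, library size alone or without CBX1 replicate 3, and that of KDM3A also with the exon length trend removed and without CBX1 replicate 2 or control replicate 1 or 2. KDM4D, which removes the tri- and dimethyl marks, had 10.8, 11.5 and 9.80 CPM in the control, 15.5, 25.6 and 18.4 CPM with CBX1_W42A, and 17.5, 14.5 and 13.9 CPM with CBX1. Libraries of both readers were above the control, and the log2 fold change was 0.52 (adjusted p = 0.028) with CBX1 and 0.88 (SE 0.18, adjusted p = 0.0201) with CBX1_W42A. It was the only gene of the wider set that passed with CBX1_W42A against the control. There 1 was higher and 0 were lower among 36, beside 1.37% and 1.25% of all genes. DESeq2 called 4 of the set lower, beside 405 of the 16144 genes it tested. The KDM4D call with CBX1_W42A was lost without CBX1_W42A replicate 2 or 3 or control replicate 1 or 3 (adjusted p up to 0.0706). Its call with CBX1 was lost with DESeq2 (adjusted p = 0.0502), with all 9 libraries in one fit (0.0578) and without CBX1 replicate 1 or control replicate 1 or 3 (up to 0.121). The other HP1 genes, CBX3 and CBX5, did not pass in any comparison.

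**Figure D5:**
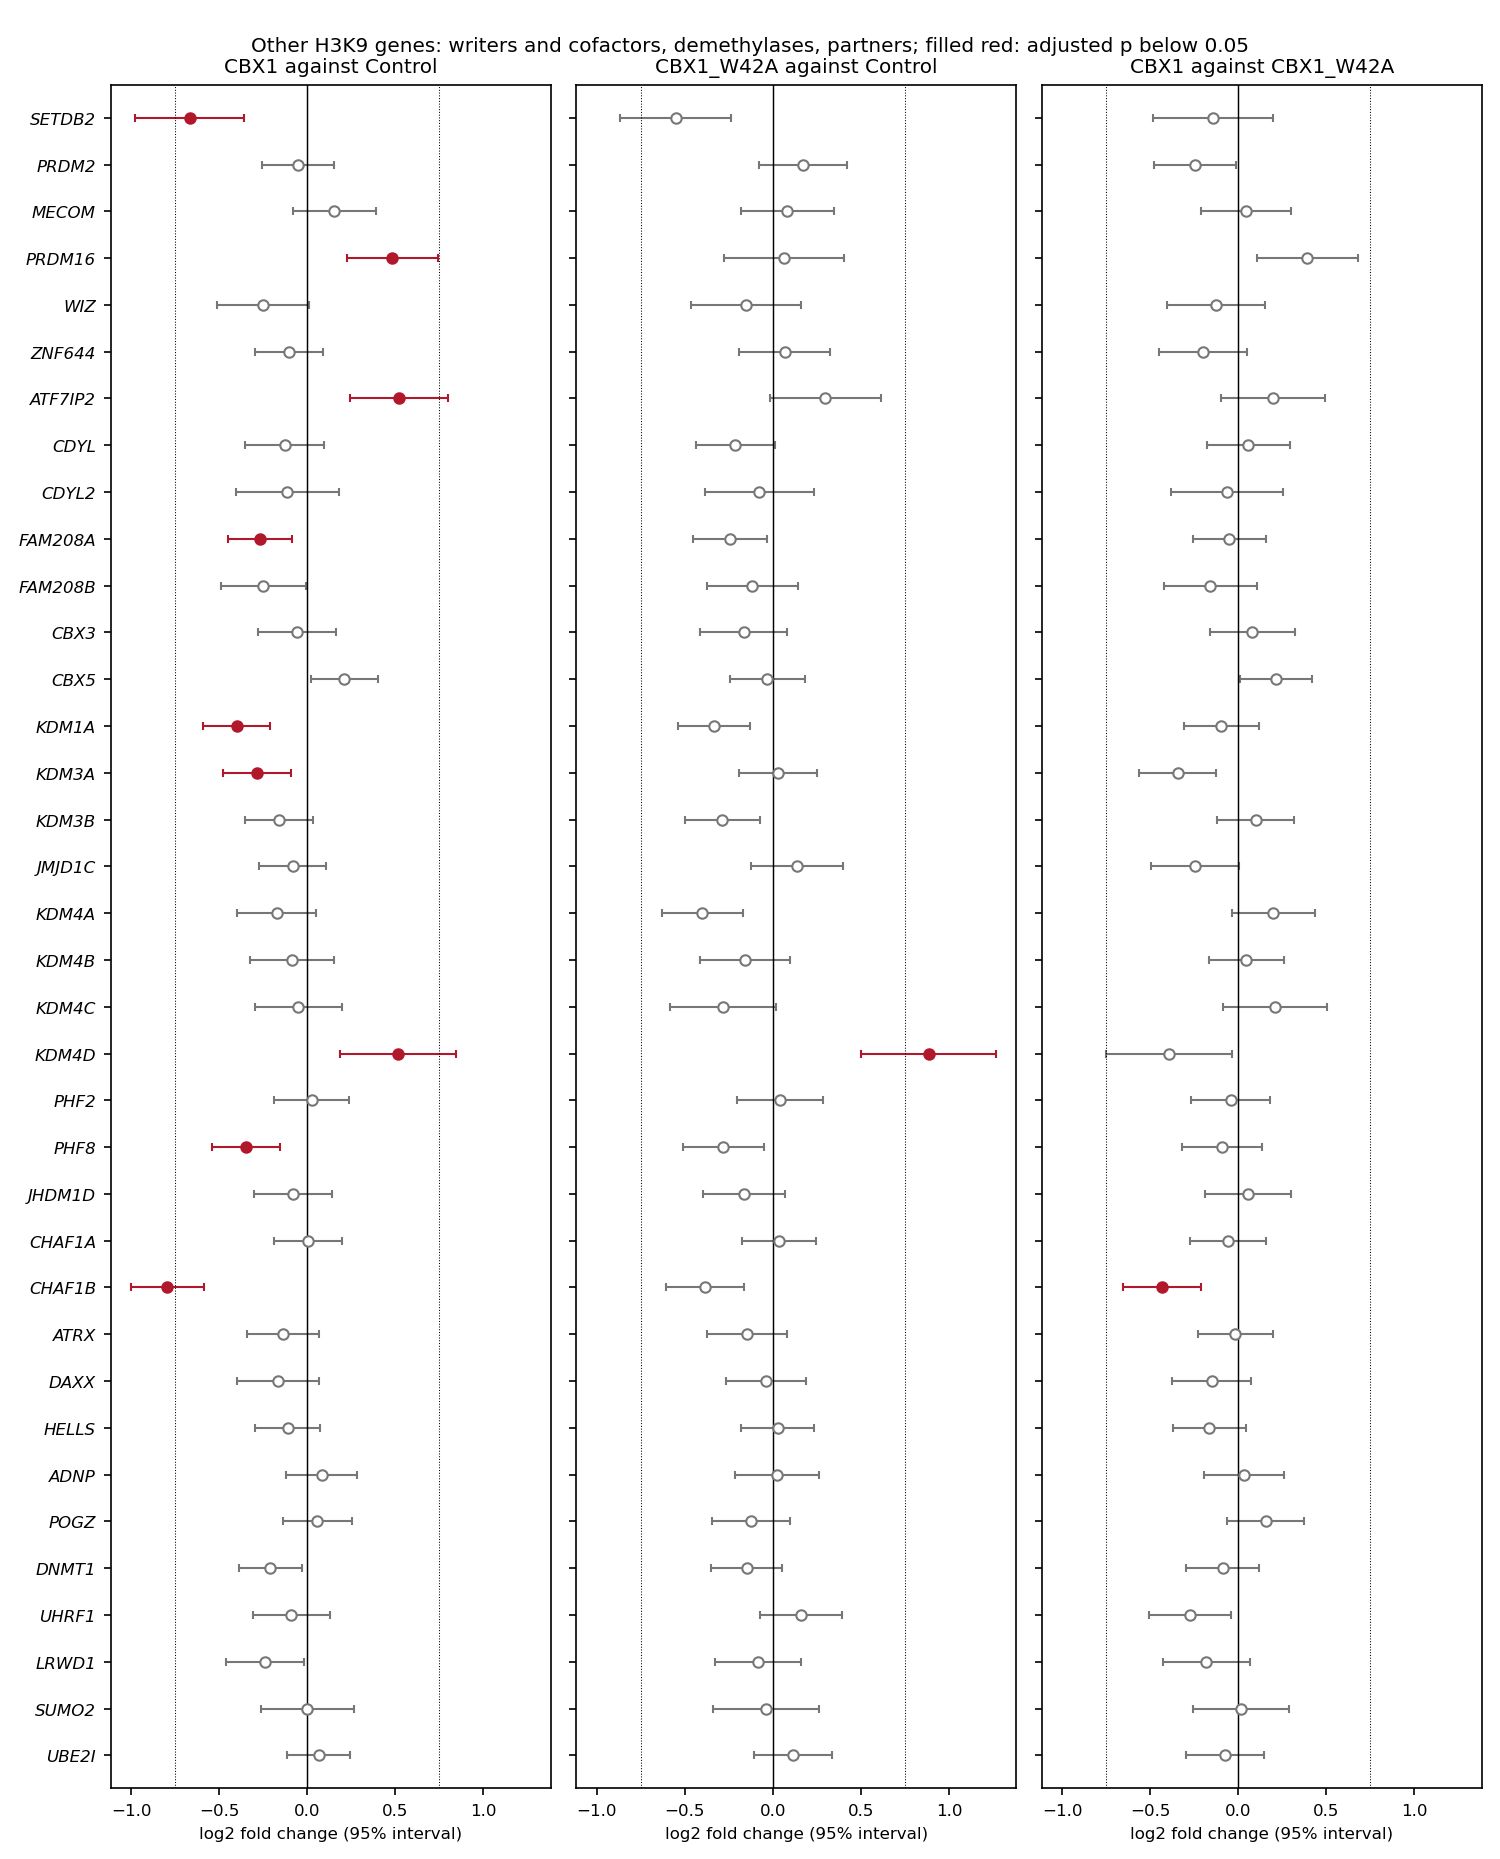
Log2 fold change (x axis) of the 36 other H3K9 genes (y axis, ordered as further writers and cofactors, demethylases and heterochromatin partners) in the 3 comparisons, with 95% intervals. Filled red points have an adjusted p below 0.05, and dotted lines mark 0.75 in either direction. CHAF1B reaches -0.80 against the control and is the one filled point between CBX1 and CBX1_W42A.

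The 5 genes whose log2 CPM followed ATF7IP most closely over the 9 libraries, among 10748 genes with a mean of at least 10 CPM, were CTD-2162K18.5 (Pearson's r = 0.970), ZNF724P (0.970), FAM120B (0.965), LRIF1 (0.959) and ZNF121 (0.950). These values describe 9 libraries in 3 groups and carry no test. Among the members themselves, ATF7IP was closest to SETDB1 (r = 0.79) and MORC2 (0.78) and most opposed to EHMT1 (-0.81), over the same 9 libraries. ATF7IP was the reference because its adjusted p against the control was the smallest of the members. All these r include the differences between groups given above and are no separate evidence.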

How the data were processed

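Chrom-seq libraries of HEK293T cells (3 with CBX1, 3 with CBX1_W42A and 3 reader-free controls) were grouped by their sample labels. Per the study's methods, the authors used fastp 0.23.1 for trimming, HISAT2 2.1.0 for alignment to hg19 and featureCounts 2.0.1 with the GENCODE 19 annotation, and they deposited raw counts per gene without normalization; they ran DESeq2 1.34.0. That introns are counted and strands kept apart was read from the counts. The members and gene lists were chosen with earlier results of these data known.

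The main tests ran in edgeR 4.0.16 (R 4.3.3), with DESeq2 1.42.0 as an alternative. In each comparison, the 6 libraries of 2 groups were scaled by TMM factors and genes with a summed count above 18 were tested by the quasi-likelihood test with Benjamini-Hochberg adjustment over all genes tested. A gene was called at an adjusted p below 0.05, following the study's filter and 2-group design, and the study's minimum log2 fold change of 0.75 was used as the stricter rule. CPM used TMM factors over 9 libraries. The biological coefficient of variation was 10.5 to 11.7%, and intervals cover 95%. Named genes were all members, called genes of the wider lists (at most 4 per direction and comparison), overlapping genes with at least 18 counts and the 5 genes closest to ATF7IP. KDM3A and FAM208A were named after their values were seen. GC content and lengths came from GENCODE version 44 lifted to GRCh37. Trend removal (lowess, span 0.3), shares, ratios and canonical transcript lengths were added after the data were seen. Scripts were tested on simulated data. No replicate pair was a duplicate (chi-square per degree of freedom 4.95 to 12.4 over 9 pairs).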

Additional observations from a re-analysis of the deposited data

How the results depend on the processing

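Of 510 member values under alternatives, 467 kept their direction and side of the threshold, 15 lost a call, 10 gained one and 18 changed sign. Both ATF7IP calls were kept under all 17 alternatives, with log2 fold changes of 0.47 to 0.68 (adjusted p up to 0.0108) against the control and 0.69 to 0.81 (up to 0.00683) against CBX1_W42A. The cause of the changes below was not tested.

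The sign changes were of members that were not called. For CBX1 against the control, MPHOSPH8 became 0.026 with upper-quartile factors, 0.032 with library size alone and 0.14 without the abundance trend, and ranged from -0.23 to 0.034 when 1 library was left out. TRIM28 became 0.077 without the abundance trend. For CBX1_W42A against the control, SUV39H1 became 0.040 with upper-quartile factors, 0.027 with library size alone and 0.040 without the abundance trend, and ranged from -0.11 to 0.087 when 1 library was left out, while EHMT1 became 0.037 and TRIM28 0.013 without the abundance trend. Between the readers, TRIM28 became 0.016 with library size alone and 0.047 without the abundance trend, and ranged from -0.079 to 0.020 when 1 library was left out.

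For CBX1 against the control, 2 members were higher with upper-quartile factors, library size alone, no filter, filterByExpr or any of the 3 trends removed. The number lower was 0 with upper-quartile factors, library size alone or the abundance trend removed, and both numbers were 0 at the 0.75 rule. At that rule 0 members were higher between the readers. In the wider list, 3 were lower against the control with upper-quartile factors or library size alone, 2 without the abundance trend and 1 at the 0.75 rule, where 0 were higher. Between the readers 0 were lower with library size alone, the abundance trend removed or the 0.75 rule. With CBX1_W42A against the control, DESeq2 called 4 lower, and all 9 libraries in one fit or no filter 3. Over all genes these settings called 405, 352 and 438 lower, beside 233 in the main test. The members' median was 0.11 without the abundance trend for CBX1 against the control. For CBX1_W42A it was -0.0059 without the abundance trend, -0.16 without the GC trend, -0.091 without the length trend, -0.12 with filterByExpr, -0.064 with library size alone and -0.050 with upper-quartile factors. By level per kilobase, 4 members kept their rank with the gene span and 1 with the canonical transcript.

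Leaving out 1 library gave 1 to 3 members higher and 0 to 2 lower for CBX1 against the control (median -0.19 to -0.013), 0 and 0 for CBX1_W42A (-0.16 to -0.091), and 1 to 2 and 0 between the readers (0.019 to 0.083). In the wider list it gave 1 to 3 higher and 3 to 6 lower, 0 to 1 and 0, and 0 and 0 to 1. Calls over all genes fell in most of these fits. For CBX1 against the control they were 1347 to 1858 higher and 886 to 1731 lower, where all libraries gave 1998 and 1782. For CBX1_W42A they were 37 to 117 and 12 to 147, where all libraries gave 256 and 233. Between the readers they were 87 to 300 and 30 to 159, where all libraries gave 255 and 179.

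Upper-quartile factors and library size alone moved the median of all genes for CBX1 against the control from 0.03 to 0.11 and 0.12, and the calls from 1998 higher and 1782 lower to 2467 and 900, and 2468 and 853. For CBX1_W42A the calls went from 256 and 233 to 375 and 57, and 336 and 61. Between the readers they went from 255 and 179 to 293 and 131, and 341 and 113.

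Replicate numbers were shared between groups, and same-numbered libraries deviated together by r above 0.1 in 4 of 9 pairs (-0.31 to 0.22). These values cannot decide whether same-numbered libraries were prepared together, since deviations from a group mean of 3 libraries depend on each other. The labels do not say so either. With the replicate block, 1 member was lower for CBX1 against the control (EHMT1 at an adjusted p of 0.0566, and KDM4D, at 0.0538, KDM3A and FAM208A of the wider list were not called), 1 gene of the wider list was higher and 2 were lower between the readers, and 2 were lower for CBX1_W42A. The block moved all calls from 3780 to 1433 higher and 1027 lower for CBX1 against the control and from 434 to 569 and 467 between the readers. With 3 libraries a group, an exact permutation test of a single value cannot go below 0.1.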
